A study of Mus musculus with 4 samples.

Results

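The genes described here are Ankrd1, Xirp1, Csrp3, Lims2, Nexn, Smpx, Fhl2, Des, Tcap and Ldb3. Their products sit at the muscle Z-disc or link it to titin, to desmin filaments or to integrins, and several of their transcripts are known to respond to stretch. These 10 genes were picked by name with their mutant over control ratios in these arrays already known, so those ratios are given as a description with no test. Every non-control probe with one of the names was taken, which gave 13 of 41174 probes: 3 for Ldb3, 2 for Nexn and 1 for each of the other 8 genes. Xirp1 stands in the files under its older name Cmya1 and was found as a RefSeq synonym, whereas the other 9 genes carry their current symbol. All 10 genes and all 13 probes passed the filter on dim probes, as did 19099 genes in all, and each of the 13 was well above background in all 8 channels with no saturated spot.

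RNA came from the atrioventricular canal (AVC), the segment between the embryonic atria and ventricles, dissected from mouse hearts at e10.5. The mutant pools were Tbx3 mutants, which the title of the series calls hypomorphic (reduced in function), and the control pools were wild type. Both had the same background of 50% Sv129 and 50% C57Bl6, and each pool held tissue from 5 hearts whose RNA was amplified linearly. Each of the 4 arrays carried 1 mutant pool in Cy5 and 1 control pool in Cy3, in the same orientation throughout, so a dye effect of a probe cannot be told apart from the genotype. The structure of the mutant allele is not given in the sources used here, and pools of hearts show no spread between embryos.

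The Z-disc is the plate that anchors the actin filaments of neighbouring sarcomeres and the ends of the giant spring protein titin. Around it lie scaffold proteins with PDZ, LIM or ankyrin domains, and several of them can move to the nucleus or are induced when muscle is stretched, so the Z-disc is regarded as a site where cardiomyocytes sense load. Desmin filaments tie Z-discs to each other, and integrin complexes tie them to the matrix. Tbx3 encodes a T-box repressor that keeps genes of chamber muscle low in the AVC and the conduction system.

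Before normalization, median spot signals were 175.1 to 232.5 in the mutant channel and 117.9 to 133.5 in the control channel. Tbx3 itself read -1.35, -1.40, -1.43 and -1.21 as log2 ratios of mutant over control on arrays 1 to 4, and was the only gene of 19099 past an adjusted p of 0.05 (mean -1.35 ± 0.10, SD, n = 4; limma adjusted p = 0.0454). A dimmer Tbx3 probe, well above background in 1 of 4 mutant pools and 3 of 4 control pools, read -0.14 ± 0.12. Array 2 stood apart from the others: its ratios correlated over genes at 0.07, -0.06 and -0.02 with arrays 1, 3 and 4, against 0.25 to 0.66 among those 3, and their SD was 0.49 against 0.26 to 0.29. Control pool 2 was the pool concerned for 8 of 9 measured uterine and decidual markers, which were highest there among controls by a median of 2.76 on the log2 scale. The summed log2 level of that list was 13.30 to 13.99 in mutant pools, against 16.40 in control pool 2 and 13.38 to 13.48 in the other controls. Leukocyte markers behaved likewise, with 10 of 10 highest in control pool 2 and a median excess of 2.18. Striated muscle markers were measured for 15 of 15 genes, and their summed log2 level was 20.77 to 20.94 in mutant pools and 20.10 to 20.35 in control pools, with no overlap. Among single genes, 3.91% had all mutant pools above all control pools. Such a sum rests mostly on the brightest genes, and 9 of the 15 had a mean log2 intensity over 16. Above 16 the median ratio of all probes was positive on every array, and the sum was not corrected for this. In tissue pools, fewer cells of a type and less RNA per cell cannot be told apart.

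Ankrd1 had the largest mean difference of the 10 genes, with a 2.07-fold level in mutant AVC. Csrp3, Nexn and Ldb3 had smaller positive ratios on 4 of 4 arrays. Fhl2 and Des had negative ratios on 4 of 4 under loess normalization, which turned positive when arrays were centred on their medians instead. Thus 4 of 10 were higher on every array, where 12.3% of all genes were, and 2 of 10 were lower on every array, where 12.6% were. These shares are over genes of all intensities. Ankrd1, Csrp3 and Nexn were bright, and the median ratio of equally bright probes was itself positive on 4 of 4 arrays. Mean ratios were positive for 7 genes and negative for 3, with a median of 0.22 on the log2 scale beside 0.0012 over all genes. The 10 genes did not move as a block, since their medians were 0.04, 0.14, 0.32 and 0.19 on arrays 1 to 4 and single genes ran from -0.33 to 1.05. In the fit over all genes none of the 10 was past an adjusted p of 0.05, a threshold that 0.00524% of genes passed. Ankrd1 alone was under 0.1 (limma adjusted p = 0.099), where 0.136% of genes were (0.0681% in the higher direction), and 6 of 10 were under an unadjusted p of 0.05, where 14.5% of genes were. Since the genes were picked on this same contrast, nothing is read from these counts.

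**Figure D1:**
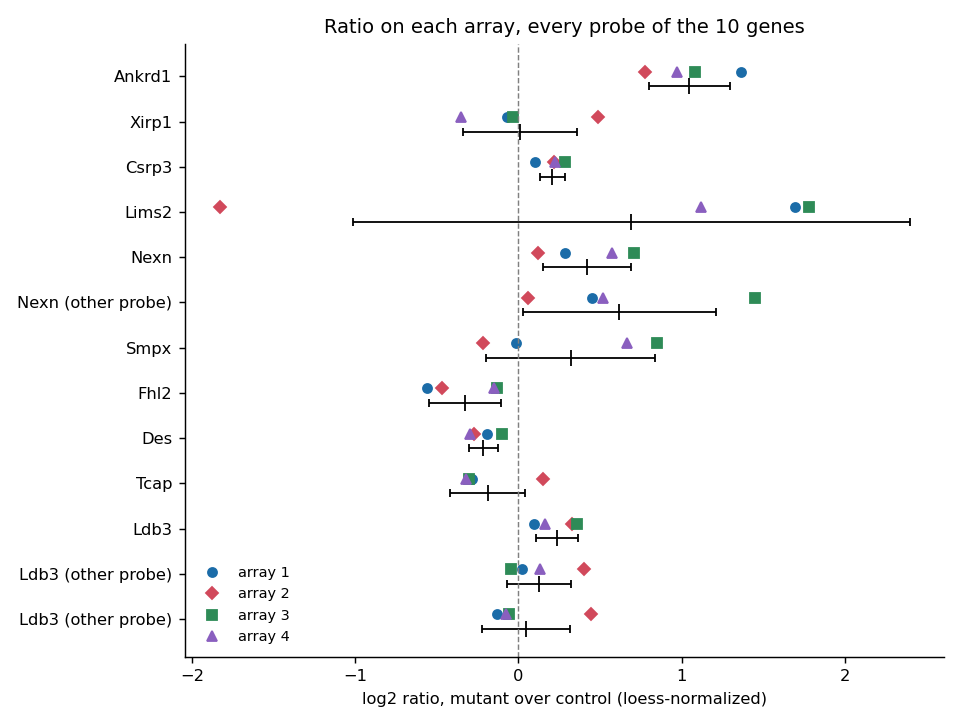
Log2 ratio of mutant over control (horizontal axis) for each of the 13 probes of the 10 genes, with 1 symbol per array and the mean ± SD of the 4 arrays under it. The 4 Ankrd1 points lie between 0.77 and 1.37, and Lims2 has 3 points from 1.12 to 1.78 and the array 2 point at -1.83.

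Ankrd1 encodes a cardiac ankyrin repeat protein that binds the spring region of titin together with myopalladin and also acts as a cofactor of transcription in the nucleus. It is a known stretch-induced gene of cardiac muscle. Its probe lies at chr19:35813004-35813063 on the minus strand (mm7). The 250 bases before its RefSeq start are printed because they hold M-CAT and T-box matches, which are in capitals (an E-box match described further on is left in lower case): GGAATG, which is the M-CAT motif CATTCC read on the other strand, at 2 places, and the T-box site GGTGTGA at 1 place. The window is chr19:36119845-36120094, minus strand, RefSeq on GRCm38.p6.
Ankrd1 promoter: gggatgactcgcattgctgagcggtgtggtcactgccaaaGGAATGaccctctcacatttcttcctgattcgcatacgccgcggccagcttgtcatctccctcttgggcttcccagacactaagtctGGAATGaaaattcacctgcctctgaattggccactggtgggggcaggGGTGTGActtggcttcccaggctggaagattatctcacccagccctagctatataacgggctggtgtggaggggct

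The normalized log2 level of Ankrd1 was 16.78, 16.37, 16.61 and 16.56 in mutant pools 1 to 4, against 15.42, 15.60, 15.53 and 15.59 in control pools. All 4 mutant pools lay above all 4 control pools, and the control pools lay close together. The log2 ratio was 1.37, 0.77, 1.08 and 0.97 on arrays 1 to 4, a mean of 1.05 ± 0.25 (SD, n = 4) or a 2.07-fold level in mutant AVC, and 1.14 ± 0.20 without array 2. Array 2 gave the smallest of the 4 values but of the same sign. At this brightness the ratios of other probes were not centred on 0: the median of the probes nearest in mean log2 intensity was 0.23, 0.11, 0.13 and 0.11 on arrays 1 to 4. With this running median removed, Ankrd1 stood at 0.90 ± 0.20. Relative to the median of the 15 striated muscle markers on each array it stood at 1.15, 0.26, 0.33 and 0.53, a mean of 0.57 ± 0.40, or 0.74 ± 0.43 with the running median removed from gene and markers alike. On both scales Ankrd1 was above the muscle median on 4 of 4 arrays.

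**Figure D2:**
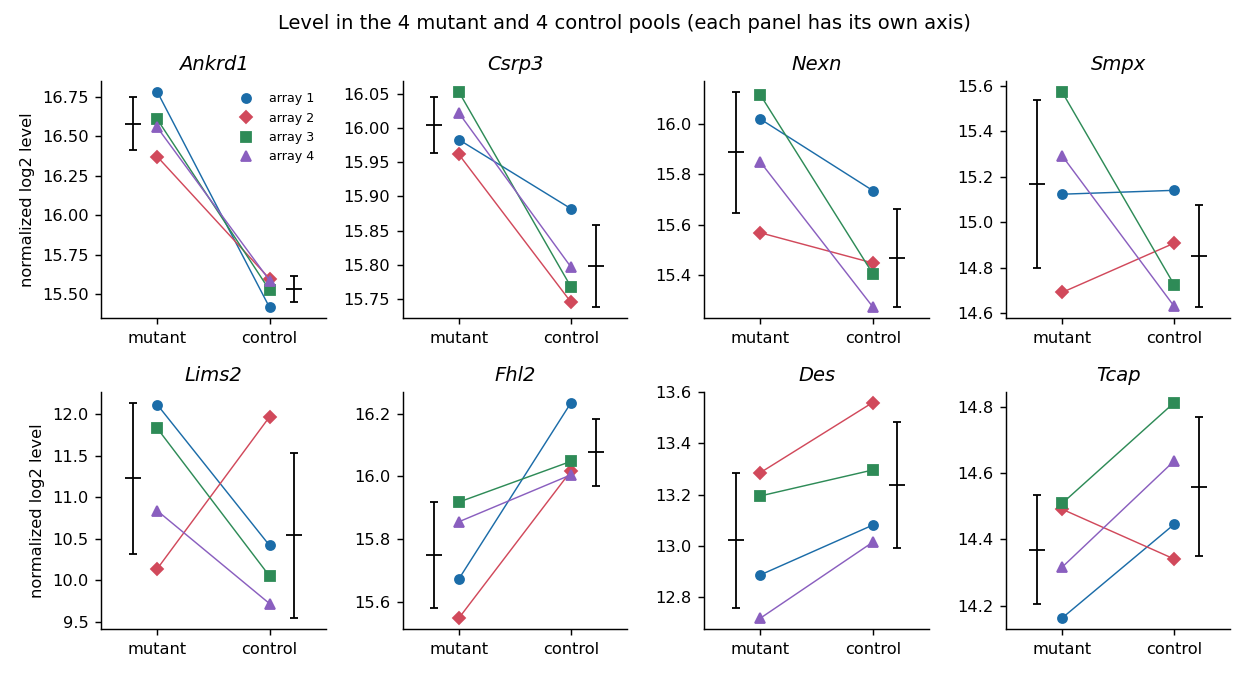
Normalized log2 level (vertical axis, a separate one in each panel) of 8 of the genes in the mutant pools (left) and the control pools (right), with lines joining the pools of 1 array and the mean ± SD of the 4 pools beside them. Mutant and control pools do not overlap for Ankrd1, Csrp3 and Fhl2, and array 2 crosses the other lines for Lims2 and Tcap.

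Csrp3 and Fhl2 are LIM-only proteins that are regarded as stretch sensors. Csrp3, also called muscle LIM protein, binds alpha-actinin and telethonin at the Z-disc and can enter the nucleus. Fhl2 binds titin and metabolic enzymes in the heart and acts as a cofactor of transcription. Both genes had mutant and control pools that did not overlap, in opposite directions. Together with Ankrd1 this made 2 of 10 genes with all mutant pools above all control pools, where 3.91% of all genes were, and 1 of 10 with all mutant pools below, where 5.1% were.

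The Csrp3 probe is printed because its match to the genome, chr7:45051358-45053272 on the minus strand (mm7), spans 1915 bases for a probe of 60 and so crosses an intron: its signal comes from spliced RNA. The same holds for the Des probe at chr1:75593023-75593248, plus strand, which spans 226 bases.
Csrp3 probe: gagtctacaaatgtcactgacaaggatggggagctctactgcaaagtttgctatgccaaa
Des probe: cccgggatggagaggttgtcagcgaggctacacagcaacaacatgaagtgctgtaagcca

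Csrp3 had log2 levels of 15.98, 15.96, 16.05 and 16.02 in mutant pools 1 to 4, against 15.88, 15.74, 15.77 and 15.80 in control pools. The lowest mutant pool lay just above the highest control pool, and the spread within each genotype was small. Its log2 ratio was 0.10, 0.22, 0.29 and 0.23, a mean of 0.21 ± 0.08 (SD, n = 4). The local median of equally bright probes was 0.17, 0.07, 0.12 and 0.09 on arrays 1 to 4, and with it removed Csrp3 stood at 0.10 ± 0.11. It read 0.03 in the scanner software's processed signals. Its mean difference from the median of the striated muscle markers was -0.27 ± 0.15, but -0.07 ± 0.15 with the running median removed from both.

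Fhl2 had log2 levels of 15.67, 15.55, 15.92 and 15.86 in mutant pools, against 16.24, 16.02, 16.05 and 16.01 in control pools. All 4 mutant pools lay below all 4 control pools, by more on arrays 1 and 2 than on arrays 3 and 4. As a log2 ratio Fhl2 read -0.56, -0.47, -0.13 and -0.15, a mean of -0.33 ± 0.22 (SD, n = 4) under loess, whereas centring each array on its median gave 0.39, where the median of all genes was 0.23. The local median at its brightness was positive, 0.17, 0.06, 0.13 and 0.08, and with it removed Fhl2 stood at -0.44 ± 0.24. Against the median of the striated muscle markers it read -0.78, -0.98, -0.88 and -0.59, the most negative mean difference among the 10 genes (-0.81 ± 0.16, or -0.60 ± 0.16 with the running median removed from both). The RefSeq windows of its alternative starts are printed because both hold a CArG box, the motif bound by serum response factor, and the upstream one also a MEF2 box, in capitals: chr1:43196762-43197011 and chr1:43163962-43164211, minus strand, RefSeq on GRCm38.p6. The probe, at chr1:43363536-43363595 on the minus strand (mm7), does not tell the starts apart.
Fhl2 upstream promoter: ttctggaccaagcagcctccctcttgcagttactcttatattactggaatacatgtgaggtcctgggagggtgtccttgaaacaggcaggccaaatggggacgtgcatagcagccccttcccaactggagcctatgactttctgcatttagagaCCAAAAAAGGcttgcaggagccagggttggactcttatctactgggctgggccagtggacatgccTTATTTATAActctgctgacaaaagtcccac
Fhl2 downstream promoter: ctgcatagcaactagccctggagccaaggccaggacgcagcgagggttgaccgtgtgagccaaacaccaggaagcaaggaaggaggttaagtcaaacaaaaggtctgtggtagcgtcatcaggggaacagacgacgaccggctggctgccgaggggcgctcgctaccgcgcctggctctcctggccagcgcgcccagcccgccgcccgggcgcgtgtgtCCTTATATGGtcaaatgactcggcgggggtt

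Tcap encodes telethonin, which caps the end of titin in the Z-disc. Its log2 level was 14.16, 14.49, 14.51 and 14.32 in mutant pools 1 to 4, against 14.45, 14.34, 14.81 and 14.64 in control pools. The pools overlapped, and array 2 ran against the other 3. The log2 ratio was -0.28, 0.15, -0.30 and -0.32, a mean of -0.19 ± 0.23 (SD, n = 4) under loess, whereas centring on array medians gave 0.37. Without array 2 the loess value was -0.30 ± 0.02. Its probe lies at chr11:98493852-98493911 on the plus strand (mm7).

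Ldb3 encodes the PDZ and LIM protein also called Cypher or ZASP, which binds alpha-actinin and holds the Z-disc together during contraction. It had 3 probes, and the one with the highest intensity stood for the gene. This probe, annotated to the transcript NM_011918 in the files, lies at chr14:31962823-31962882, while the other probes, annotated to NM_001039076, lie at chr14:31994896-31994955 and chr14:31995183-31995242 (all minus strand, mm7), so the probes report different transcripts. The first is printed as the one whose ratio was positive on 4 of 4 arrays.
Ldb3 probe: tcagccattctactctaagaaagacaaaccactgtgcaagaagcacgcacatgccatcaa

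With that probe Ldb3 had log2 levels of 11.51, 11.39, 11.67 and 11.44 in mutant pools, against 11.41, 11.06, 11.31 and 11.27 in control pools. The highest control pool overlapped the lowest mutant pool. Mutant over control, the log2 ratio was 0.10, 0.33, 0.36 and 0.16 on arrays 1 to 4, a mean of 0.24 ± 0.13 (SD, n = 4). The probes of the other transcript read 0.02, 0.40, -0.04 and 0.13, and -0.13, 0.45, -0.06 and -0.07. Their means of 0.13 ± 0.20 and 0.05 ± 0.27 rested on array 2, without which they were 0.04 and -0.09. The difference between the transcripts was not tested. Set against the median of the striated muscle markers, the main probe stood at -0.12, -0.18, -0.39 and -0.28, a mean of -0.24 ± 0.12, but at 0.08 ± 0.19 with the running median removed from both.

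Nexn, Smpx and Xirp1 encode proteins of actin filaments and cell contacts in muscle. Nexilin binds filamentous actin at the Z-disc. Smpx, known as chisel, is a small protein of the costamere (the rib that joins the Z-disc to the membrane) and is induced by stretch in skeletal muscle. Xirp1 encodes Xin, an actin-binding repeat protein of the intercalated disc.

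Nexn had log2 levels of 16.02, 15.57, 16.11 and 15.85 in mutant pools and 15.74, 15.45, 15.41 and 15.27 in control pools with its brighter probe (chr3:152138251-152138310, minus strand, mm7). Mutant pool 2 was the lowest mutant pool and lay below control pool 1, so the groups overlapped. The log2 ratio was 0.28, 0.12, 0.71 and 0.57, a mean of 0.42 ± 0.27 (SD, n = 4), and 0.34 ± 0.27 with the running median removed. The second probe (chr3:152152227-152152286), annotated to the cDNA AK028732, read 0.45, 0.06, 1.45 and 0.52. Both probes were positive on 4 of 4 arrays, highest on array 3 and lowest on array 2, and the second averaged 0.62 ± 0.59.

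Smpx had log2 levels of 15.12, 14.69, 15.57 and 15.29 in mutant pools, against 15.14, 14.91, 14.72 and 14.63 in control pools (probe chrX:152526800-152526859, plus strand, mm7). Mutant pools 3 and 4 lay above all control pools, and mutant pools 1 and 2 did not. On arrays 1 to 4 the log2 ratio was -0.02, -0.22, 0.85 and 0.66, a mean of 0.32 ± 0.52 (SD, n = 4). Epicardial markers, 1 of 10 marker lists, were also higher on arrays 3 and 4, with medians of -0.23, 0.06, 0.57 and 0.57 on arrays 1 to 4. Arrays 1 and 2 had the opposite order from Smpx. Of the 8 markers, 6 had a positive mean and 1 was higher on 4 of 4 arrays. Their summed log2 level was 14.76 to 15.28 in mutant pools and 14.54 to 15.04 in control pools. The part of epicardial tissue in the Smpx and Nexn values was not tested.

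Xirp1 had log2 levels of 11.26, 11.29, 11.34 and 10.85 in mutant pools and 11.33, 10.80, 11.37 and 11.20 in control pools (probe chr9:119710001-119710060, minus strand, mm7). Each group had 1 low pool, mutant pool 4 and control pool 2, and they fell on different arrays. The log2 ratio was therefore -0.07, 0.49, -0.03 and -0.35, a mean of 0.0074 ± 0.35 (SD, n = 4), and -0.15 ± 0.18 without array 2. No direction is given for Xirp1, whose sign differed from the first value in 2 of 14 alternative settings.

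Des encodes desmin, the muscle intermediate filament that joins Z-discs laterally. Its probe, printed above, was spotted 10 times on each array. Des had log2 levels of 12.89, 13.29, 13.20 and 12.72 in mutant pools, against 13.08, 13.56, 13.30 and 13.01 in control pools. The pools overlapped because the 2 pools of an array varied together, with array 2 high and array 4 low in both genotypes, and in each pair the mutant pool was the lower one. The log2 ratio was -0.19, -0.27, -0.10 and -0.30, a mean of -0.22 ± 0.09 (SD, n = 4) under loess, while centring on array medians gave 0.22 against a median of 0.23 for all genes. The SD over the 10 repeat spots was 0.03, 0.02, 0.02 and 0.02 on arrays 1 to 4, below the spread between arrays. The mean difference of Des from the median of the striated muscle markers was -0.69 ± 0.20, with 4 of 4 arrays negative, but -0.34 ± 0.27, with 3 of 4 negative, once the running median was removed from both.

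Lims2 encodes PINCH2, a LIM adaptor that joins integrin-linked kinase and parvin at integrin adhesions, and it is not restricted to muscle. Its log2 level was 12.12, 10.14, 11.83 and 10.84 in mutant pools 1 to 4, against 10.42, 11.97, 10.05 and 9.72 in control pools (probe chr18:32350639-32350698, plus strand, mm7). Mutant pool 2 was the lowest mutant pool and control pool 2 the highest control pool. As a log2 ratio Lims2 read 1.70, -1.83, 1.78 and 1.12, a mean of 0.69 ± 1.71 (SD, n = 4), and 1.53 ± 0.36 without array 2, or 2.89-fold. On the other 3 arrays it was thus the largest of the 10 differences.

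Control pool 2 exceeded the mean of the other controls by 1.91 for Lims2 and by 0.43 for Des, and mutant pool 2 differed from the other mutant pools by -1.46 for Lims2 and 0.35 for Des. Uterine and decidual markers in the same pool included Dcn at 15.43 in control pool 2 against 11.63 to 11.98 in the other controls, Lum at 14.26 against 10.73 to 11.13, and Igf1 at 12.12 against 11.25 to 11.44. Only 9 of the 16 listed uterine markers were measured. Cushion mesenchyme markers were also high there, with a summed log2 level of 19.40 in control pool 2 against 17.32 to 17.35 in the other controls. Of 12 smooth muscle markers, 4 were highest among controls in control pool 2, and the median difference of the list from the other controls was -0.02. Myh11, chosen after its values were seen, read 11.30 in control pool 2 against 8.05 to 8.53 in the other controls. Lims2 was lowest among mutant pools in pool 2, where 0 of 9 uterine markers were lowest. Of other lists, 8 of 12 load-responsive genes were lowest there, with a median of -0.74 from the other mutant pools. So were 6 of 15 striated muscle markers (median -0.03), 4 of 8 epicardial markers (-0.27) and 9 of 26 Z-disc scaffold genes (0.0028). The count was 8 of 22 in the YAP and TEAD list, 7 of 22 for integrin adhesion genes and 3 of 12 for smooth muscle markers. It was 1 of 11 for cushion mesenchyme markers and 0 of 10 for erythroid markers. No share over all genes was taken for these counts. The part of other tissue, or of these lists, in the Lims2 values was not tested.

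**Figure D3:**
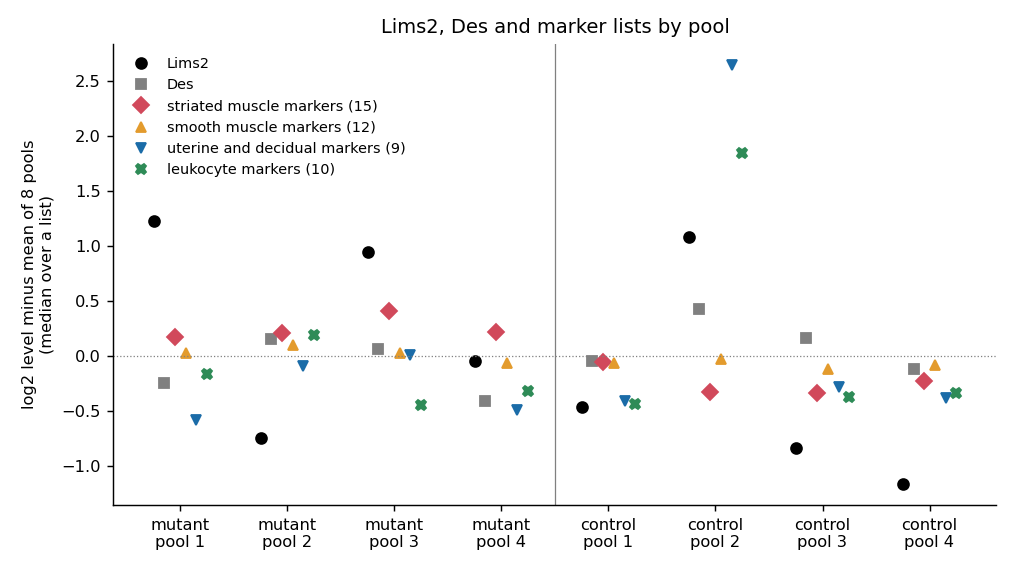
Log2 level of Lims2, Des and 4 marker lists (the median over the genes of a list) minus the mean of the 8 pools (vertical axis), in each mutant pool (left) and each control pool (right). Control pool 2 shows uterine and decidual markers at 2.65, leukocyte markers at 1.85 and Lims2 at 1.09, while Lims2 in mutant pool 2 stands at -0.75.

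Ratios across the arrays depended on brightness, which bears on the muscle genes because many of them are among the brightest probes. For 243 probes with a mean log2 intensity of 16 to 17 the median ratio was 0.19 to 0.32, and for 88 brighter ones 0.50 to 0.83. Of the 15 striated muscle markers, 14 had a positive mean ratio, with a median of 0.55, and 9 had a mean intensity over 16. With the running median removed their median was 0.17 and 12 of 15 were positive. The comparison of the 10 genes with these markers moved with it: 8 of 10 had a negative mean difference from the marker median and 6 were lower on 4 of 4 arrays, but with the running median removed from both these counts were 5 and 1, and the 1 was Fhl2. Ldb3, Nexn and Smpx changed sign between these scales. Tcap stood at -0.67 ± 0.31 before the removal and at -0.28 ± 0.29 after it. The median of the 10 genes was 0.17 on that scale, beside -0.0053 over all genes. Whether the trend comes from the labelling, the scanner or the tissue was not tested.

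**Figure D4:**
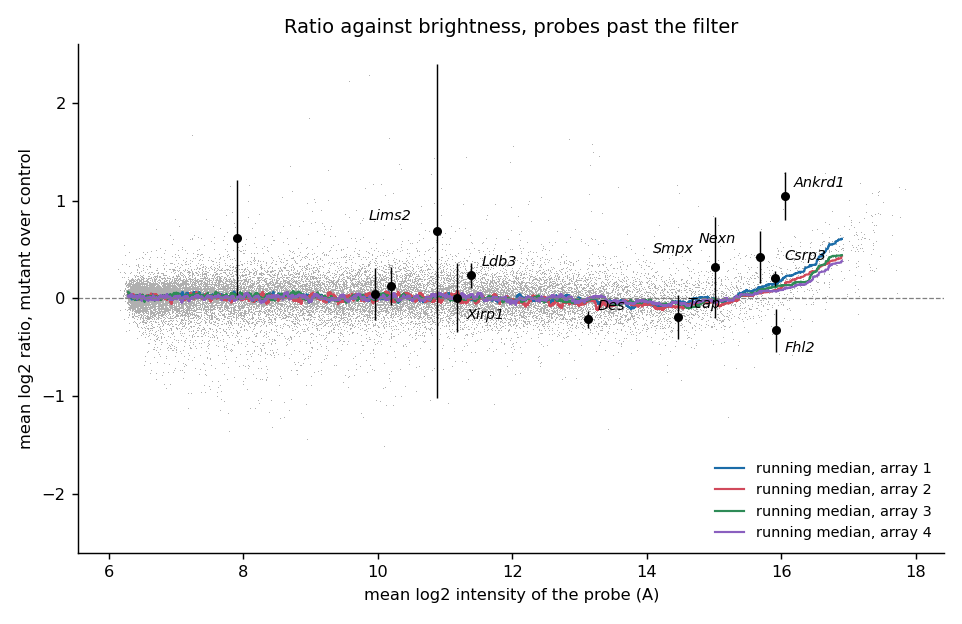
Mean log2 ratio of mutant over control (vertical axis) against mean log2 intensity (horizontal axis), with grey points for all probes past the filter, coloured lines for the running median of each array and black points with SD bars for the 13 probes. Above an intensity of 16 the running medians lie above 0 on all 4 arrays. Ankrd1, at an intensity of 16.06, lies above the running medians at its brightness, and Fhl2, at 15.92, lies below those at its own.

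Levels over the 8 pools gave each gene its nearest companions in pattern. These correlations are descriptions: the 8 pools are 2 genotypes paired on 4 arrays, so they share genotype, dye and array. Among the 10 genes, Nexn and Smpx were most alike (Pearson r = 0.90), followed by Ankrd1 with Csrp3 (0.88), and Ankrd1 and Fhl2 were most opposed (-0.78). Over all genes, Ankrd1 was nearest to the ribosomal protein genes Rpl19 (0.995; mean log2 ratio 0.71) and Rpl34 (0.99; 0.62) and to LOC670202 (0.99). Xirp1 was nearest to Colq (0.97), which anchors acetylcholinesterase, to Mypn (0.96), which encodes the Z-disc protein myopalladin, and to Emsy (0.94). Nexn was nearest to LOC673378 (0.99), to Bag2 (0.98), a chaperone cofactor, and to Synpo2l (0.98), an actin-binding Z-disc protein. Lims2 was nearest to BC030477 (0.99), N4bp3 (0.99) and Rarres2 (0.98), which encodes the secreted protein chemerin and read 1.11, -0.79, 0.87 and 0.75 on arrays 1 to 4. Rarres2 and Lims2 thus shared the sign change on array 2.

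Csrp3 was nearest to Map2k1 (0.98), a kinase of the ERK cascade, then to NAP113293-1 (0.98) and Bcorl1 (0.98), and Ldb3 to AK037052 (0.98), Prkaa2 (0.98), the catalytic subunit of AMP-activated kinase, and Efnb3 (0.98). Smpx was nearest to Fam76b (0.98), Zfyve28 (0.98) and Tbc1d23 (0.97), and Tcap to Fam189a2 (0.98), Lrrc20 (0.97) and Pnkd (0.97). Fhl2 was nearest to Acad8 (0.97), a mitochondrial dehydrogenase, and Smarca1 (0.96), and Des to the lysosomal gene Laptm4b (0.98), Ggcx (0.98) and the lysosomal gene Glb1 (0.98).

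Genes of the same pathways were taken from 7 lists with 134 entries, of which 130 were measured. The lists were written with earlier results of these data known. Their counts and medians are therefore descriptions, and no enrichment is read from them. None was past the threshold of the all-gene fit (limma, adjusted p of 0.05), where 0.00524% of genes were, and 25 were higher and 11 lower at an unadjusted p under 0.05, where 7.09% and 7.45% of all genes were. Without array 2, where 1.01% of all genes passed (0.681% higher and 0.33% lower), 6 of these entries did: Myh7, Nppa, Nppb, Hbegf and Edn1 were higher and Fstl1 was lower. Load-responsive peptide and immediate early genes had the highest median, 0.71 over 12 genes with 10 positive. By array that median was 1.09, 0.05, 0.58 and 0.62, so array 2 was the low one. Its brightest genes were Myh7, the slow myosin heavy chain, at 1.09 ± 0.22, and Nppa, atrial natriuretic peptide, at 1.28 ± 0.83 (SD, n = 4 each).

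The Z-disc scaffold list, which is the closest in function to the 10 genes, had 13 of 26 genes positive and a median of 0.00036. Its brightest genes were Synpo2l at 0.46 ± 0.31 and Pdlim3, an alpha-actinin-binding PDZ and LIM protein, at -0.23 ± 0.09. Titin spring and stretch signalling genes had 11 of 19 positive and a median of 0.04, with Csrp2 at 0.13 ± 0.28 and the actin bundler Palld at -0.06 ± 0.12. The YAP and TEAD list had 10 of 22 genes positive and a median of -0.04. It holds the factors themselves, such as Yap1, Wwtr1 and Tead1, and upstream genes such as Lats2, beside targets, which respond to cell tension. Its median is therefore not that of the targets alone. The brightest genes of the list were Birc5, a mitotic survival gene, at 0.13 ± 0.14 and Fstl1, a secreted glycoprotein, at -0.49 ± 0.05.

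Genes of serum response factor and its MRTF cofactors had 11 of 16 positive and a median of 0.19, which was 0.02 with the running median removed. Their brightest genes, the regulatory light chain Myl9 and the tropomyosin Tpm1, read 0.35 ± 0.14 and 0.49 ± 0.30. Integrin adhesion and PINCH complex genes, the group to which Lims2 belongs, had 12 of 22 positive and a median of 0.01, with the adhesion protein Zyx at -0.05 ± 0.27 and the laminin receptor subunit Itga6 at 0.08 ± 0.29. Intermediate filament and desmosome genes, the group of Des, had 8 of 15 positive and a median of 0.11, with vimentin (Vim) at 0.27 ± 0.15 and lamin A (Lmna) at -0.01 ± 0.42. Apart from the load-responsive list, the lists thus had medians between -0.04 and 0.19.

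**Figure D5:**
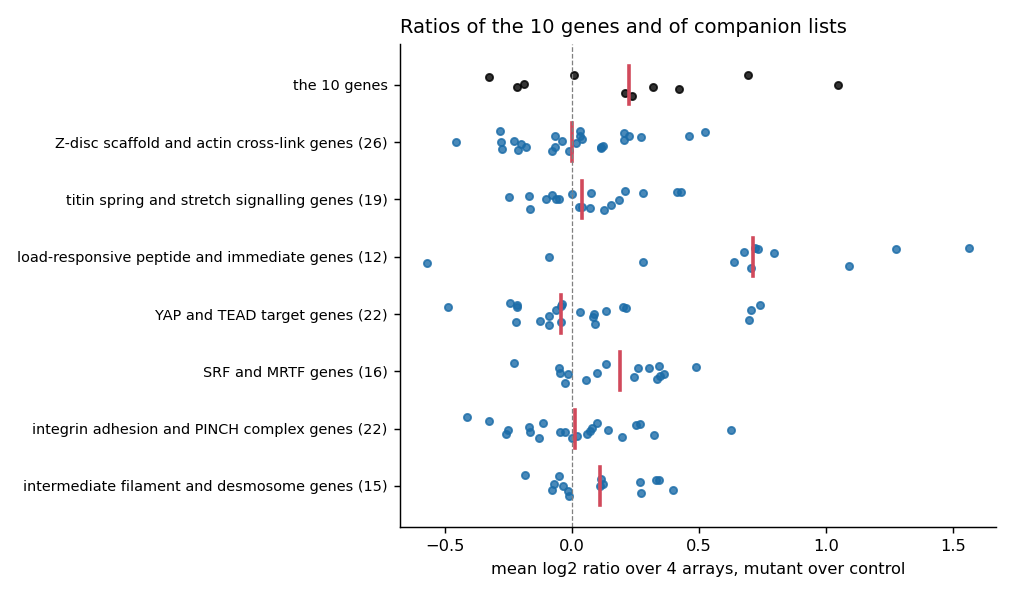
Mean log2 ratio of mutant over control (horizontal axis) of the 10 genes (top row) and of the measured genes of 7 companion lists (rows below, with the number of genes), 1 point per gene and a red bar at the median. The load-responsive list has its median at 0.71, and the Z-disc scaffold list at 0.00036.

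Promoter windows were at hand for 6 of the 10 genes (Ankrd1, Csrp3, Des, Fhl2, Ldb3 and Smpx), 9 windows in all, and the 250 bases before each start were searched on both strands. The M-CAT motif CATTCC, bound by TEAD factors, was found in 1 of 9, for Ankrd1 at bases -210 to -205 and -123 to -118, and in 12.6% of 32851 windows of all genes. The T-box site GGTGTGA was found in the same window at -76 to -70, and in 3.33% of all windows. The E-box CANNTG was found in 6 of 9 windows, from 4 of 6 genes, and in 66.2% of all windows. No match overlapped one of another motif in the windows of these genes. A CArG box was found in 4 of 9 windows, from Fhl2 and Ldb3 (1.47% of all windows), with the same single match in both overlapping Ldb3 windows. A MEF2 box was found for Fhl2 (2.92%), at -31 to -22 from the upstream start, and the Fhl2 CArG boxes lay at -96 to -87 and -31 to -22 from their starts. These letters are descriptions of sequence, and no binding was measured.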

How the data were processed

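Values came from 4 arrays of 2 colours, each with 1 mutant pool in Cy5 and 1 control pool in Cy3, per the labels. The authors deposited Agilent Feature Extraction 9.5.1 output, per the submitters' processing notes and the file headers: mean spot intensity with local background intensity, processed intensity (background-subtracted and dye-normalized), the log10 ratio of red over green, and other flags per spot. In the deposited series table the log10 ratio matched the scanner files to within 5e-07, with column medians of 0. Probe positions are on mm7, per the file headers, and exons and UTRs are not stated, since no mm7 annotation was used. Here, intensities were corrected by normexp (offset 50) and loess within each array with control spots at weight 0, and channel levels were made comparable by Aquantile (limma 3.58.1, R 4.3.3). Repeat spots were averaged without non-uniform ones. A probe was kept if 1 or both channels were well above background on 3 or more arrays (28806 of 41174), and the brightest probe stood for a gene. Names were updated through a RefSeq table, 22951 probes by accession, 6659 by symbol and 3109 by synonym, with 8455 left as in the files. The log2 ratio, mutant over control, was tested against 0 over 19099 genes by limma (lmFit, eBayes, 2-sided, Benjamini-Hochberg, threshold 0.05), and the fit was checked on simulated data. Pools share an array by design, so each array's ratio is 1 value and n = 4, which limits the precision. The labels call the arrays biological replicates and each pool holds 5 hearts, so p-values measure spread between pools. All arrays lay on 1 slide in 1 scan, so neither could be tested as a batch.

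The 10 genes, 7 companion lists (Z-disc scaffold, titin and stretch signalling, load-responsive, YAP and TEAD, SRF and MRTF, integrin adhesion, intermediate filament) and 10 marker lists (striated, skeletal and smooth muscle, uterine, endocardial, cushion, epicardial, erythroid, leukocyte, liver and gut) were chosen with earlier results of these data known. The rule for names was all 10 genes with every probe, Tbx3, any companion gene past the threshold and the 2 brightest of each list, the 3 nearest genes by Pearson r over 8 pools (1 of these is not reported here), and at most the 3 brightest of a marker list. The 6 companion genes named as past the threshold without array 2, and the smooth muscle marker Myh11, were added after their values were seen. Alternatives were processed signals, an offset of 16, median centring, removal of a running median over intensity, other probe filters, the mean over probes, non-uniform spots kept, channels as separate samples, the deposited table, each array left out and other thresholds.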

Additional observations from a re-analysis of the deposited data

Results flagged for a closer look

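Of 39 sets of 4 values examined (levels of the 4 mutant pools, levels of the 4 control pools and ratios of the 4 arrays, for each of the 13 probes), 4 had 1 value set apart from the other 3 by a share of the whole range above Dixon's critical value, where chance gives about 5% of sets. The log2 ratio of Tcap was highest on array 2 at 0.15, with a gap of 0.92 of the range. The Ldb3 probe at chr14:31995183-31995242 had its highest log2 ratio on array 2 at 0.45 (0.874 of the range). The other NM_001039076 probe of Ldb3 had its lowest control level in pool 2 at 9.89 (0.892 of the range). The Xirp1 level was lowest in mutant pool 4 at 10.85 (0.842 of the range).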

How the results depend on the processing

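Over the 14 alternatives, the mean log2 ratio kept its sign in 14 for Ankrd1 (0.85 to 1.78), Csrp3 (0.03 to 0.92), Lims2 (0.33 to 1.53), Nexn (0.33 to 1.11), Smpx (0.14 to 0.94) and Ldb3 (0.14 to 0.59). It kept its sign in 12 for Xirp1 (-0.15 to 0.35), and in 13 for Fhl2, Des and Tcap, which turned to 0.39, 0.22 and 0.37 under median centring. That setting moves the median of all genes to 0.23, and relative to it the same genes stood at 0.16, -0.0076 and 0.15. Under it the median of the 10 genes was 0.76, 7782 of 19099 genes were past the threshold, and the companion lists had 14 (Z-disc, median 0.41), 13 (titin, 0.41), 7 (load-responsive), 8 (YAP and TEAD, 0.32), 14 (SRF, 0.73), 11 (adhesion, 0.46) and 11 (intermediate filament, 0.53) genes past it. That setting leaves out the loess step.

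Tbx3 was negative in 14 of 14 alternatives and past the threshold in 7. The count of genes past the threshold was 3 with processed signals and 3 with the deposited table, all higher in mutants, 0 with an offset of 16 (2687 at an unadjusted p under 0.05) and 0 with the mean over probes (2540 unadjusted). It ranged from 0 to 193 when 1 array was left out: 193 without array 2, and 0 without array 1, 3 or 4 (2184, 1499 and 1537 unadjusted). Looser thresholds gave 26 (adjusted p under 0.1) and 2777 (unadjusted). Without the replicate block, with channels as separate samples, the count was 185, with 1 titin and 2 load-responsive genes. Without array 2, Ankrd1 and Lims2 were past the threshold (limma adjusted p = 0.0351 and 0.0388), as were 1.01% of all genes, and nothing is read from it since the genes were picked on this contrast. The same setting had 5 load-responsive genes higher and 1 YAP target lower past the threshold. The cause of these shifts was not tested. Removing the running median from genes and striated muscle markers alike, an alternative chosen after seeing the data, moved the difference from the marker median by more than 1 SD for Csrp3, Nexn, Fhl2, Des, Tcap and Ldb3. The SRF median was 0.047 with processed signals or the deposited table and 0.023 with the running median removed. The intermediate filament median was -0.00081 in the first 2 of these and 0.030 in the last. The adhesion median was 0.052 with the running median removed and -0.025 to 0.068 with 1 array left out. With 4 pairs of pools of 1 dye orientation, a difference of any size could not be told apart from a dye effect of the probe. This holds for the small differences of Csrp3 and Des and for the larger one of Ankrd1.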

Other observations

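Marker lists of the tissues around AVC muscle gave these values as log2 ratios of mutant over control, and none of their genes was past an adjusted p of 0.05 in the all-gene limma fit. Cushion mesenchyme, which fills the AVC swellings, had 10 of 11 markers with a negative mean and a median of -0.37, with -0.25, -0.77, -0.18 and -0.24 on arrays 1 to 4. In control pool 2, 8 of those 11 were the highest of the controls, by a median of 0.57. Endocardial markers, of the inner lining, had 5 of 10 positive and a median of 0.01. Erythroid markers differed between arrays, with medians of 1.18, 0.49, -0.29 and -0.14. Skeletal muscle markers had 6 of 9 positive and a median of 0.08, smooth muscle markers 6 of 12 and 0.02, and liver and gut markers 3 of 4 and 0.17. Uterine and decidual markers had 1 of 9 positive with a median of -0.48, and leukocyte markers 1 of 10 with a median of -0.39, and array 2 stood at -2.94 and -1.78 in these lists. Epicardial markers had a median of 0.19.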
